A study of Rattus norvegicus with 12 samples.

Results

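The genes for translation initiation and elongation factors were followed in fetal rat kidneys, taken at 19 days of gestation. They were taken as the genes whose symbol begins with Eif and a digit from 1 to 6, or with Eef and 1 or 2, on transcript clusters of the array that carry a single symbol. This gave 43 genes of 14557 named genes on 36685 clusters, with pseudogene symbols left out and the cluster of highest mean kept for Eif4a1, the gene with 2 clusters. The 12 pools were 6 of chronic photoperiod shifting (CPS), in which the light schedule of pregnant Sprague-Dawley rats was reversed every few days, and 6 of the regular photoperiod (LD), with 12 h light and 12 h dark. The mothers were mated at 70 to 80 days of age, the labels name no genetic change or drug for either group, and CPS mothers were returned to the regular photoperiod shortly before sampling. Each pool held kidneys of 6 non-sexed fetuses of 1 mother, as the sample labels are read here, so it mixes sexes and all cell types of the organ, and fewer cells of a type cannot be told apart from less RNA per cell. The labels give the clock time of collection as 8 h in 1 field and as 20 h in another, and the methods of the study give 8 h.

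Translation of an mRNA begins when eIF2, bound to GTP and the initiator transfer RNA, joins the small ribosomal subunit with eIF1, eIF1A, eIF3 and eIF5. The eIF4 factors then bring this complex to the cap of the mRNA, where eIF4E holds the cap, eIF4G is the scaffold and eIF4A is an RNA helicase. eIF2 is recharged with GTP by eIF2B, and kinases that phosphorylate eIF2 alpha slow this step under stress, which favours the translation of Atf4. During elongation eEF1A brings aminoacyl transfer RNA to the ribosome and eEF2 moves the ribosome along the mRNA. The arrays measure the mRNA of these factors, not their protein, their phosphorylation or translation itself.

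Most factor genes lay at nearly the same level in CPS and LD kidneys. At an unadjusted p under 0.05 in limma, the threshold of the study, 2 of the 43 genes stood higher in CPS kidneys, 1 stood lower and the remaining 40 missed the threshold. The genes higher in CPS were Eif2ak3, which encodes the endoplasmic reticulum kinase PERK, and Eif4e3, a cap-binding relative of eIF4E. The gene lower in CPS was Eif4a2, which encodes a form of the helicase eIF4A. These 3 genes are 6.98% of the factors, and of all named genes 4.72% passed in either direction, 2.94% higher and 1.78% lower. Among all clusters 5.3% passed, 2.38% higher and 2.93% lower in CPS. Among the 2830 named genes within the interquartile range of the factors' levels 3.6% passed, 1.8% in each direction. Of the 3 factor genes that passed, only Eif4a2, at a mean level of 9.19, lay within that range. Eif2ak3 at 6.33 and Eif4e3 at 4.97 lay below it, so 3.6% is no like measure for all 43 genes. No factor was left after Benjamini-Hochberg adjustment of the limma p-values over the 36685 clusters (0 of all clusters, smallest adjusted value 0.887), while 1946 clusters had an unadjusted p under 0.05. The methods' unpaired one-way test passed 2020 clusters before adjustment. For none of the 43 factors did every CPS pool lie on one side of every LD pool, a separation seen in 0.295% of all named genes.

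**Figure D1:**
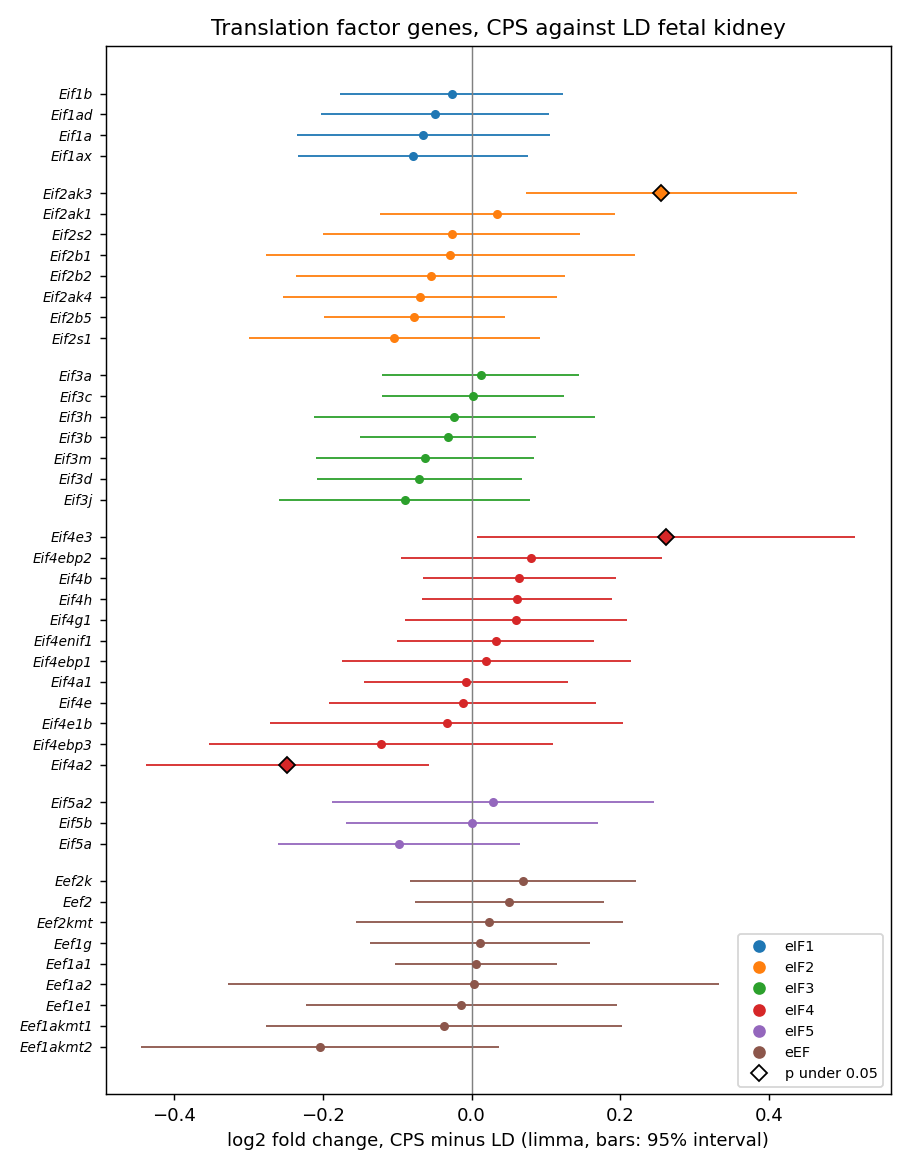
Log2 fold change of each of the 43 factor genes, CPS minus LD, with its 95% interval from limma, by group of factors. Diamonds mark Eif2ak3 at 0.25, Eif4e3 at 0.26 and Eif4a2 at -0.25, and the intervals of the other genes include 0.

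The size of the differences was small throughout. The log2 fold change, CPS minus LD, ranged from -0.25 to 0.26 with a median of -0.01. The median was 0.01 over all named genes and -0.01 over the 2830 named genes of like level. The log2 fold change exceeded 0.1 in size in 6 of the 43 genes, and for 29 genes the whole 95% interval lay within 0.25 of 0. The residual SD of a factor gene between pools had a median of 0.12, against 0.11 for the same 2830 genes of like level and 0.18 for all named genes. By this measure the factors varied between pools about as much as other genes of like signal.

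Markers of tissues near the kidney moved between pools. Their levels are read against a dim range that ends at 2.59, the 95th percentile of 208 olfactory and vomeronasal receptor genes. The mean log2 value of 13 measured liver genes, of 19 listed, ranged from 4.92 to 7.02 in CPS pools and from 4.49 to 6.55 in LD pools, highest in CPS replicate 2 and LD replicate 6. All 13 had a positive log2 fold change, with a median of 0.71, and 1 of them, Cps1 of the urea cycle, passed the threshold upward. For the adrenal cortex, 10 of 15 listed genes had a mean that ranged from 2.97 to 3.65 in CPS pools and from 2.84 to 3.22 in LD pools. Of the 10, 5 were higher in CPS in limma and 6 lay above the dim range by their mean over all 12 pools. The mean of 9 skeletal muscle genes ranged from 3.53 to 6.50 in CPS pools, highest in replicate 1, and from 3.42 to 4.57 in LD pools. Of the 9, 2 were higher in CPS, while 0 of 6 blood genes passed. All liver, muscle and blood genes measured had a mean over the 12 pools above the dim range. Of the adrenal enzymes Cyp11b1, Cyp11b2, Cyp17a1 and Hsd3b2 lay within it, of which Cyp11b1 was among the 5 higher in CPS. Cyp21a1 and Akr1b7, also among these 5, had LD means within the dim range, 2.48 and 2.24, and CPS means of 3.19 and 3.10. The part of these tissues in the results was not tested beyond the fits with liver and adrenal means, or without the arrays of highest liver mean. Of 18 genes listed for the fetal kidney 13 were measured, all above the dim range. Among them were Six2 of nephron progenitors and Ret of the ureteric bud. Of the 13, 11 had a positive log2 fold change and 1 passed upward, Foxd1 of stromal progenitors, at 0.19.

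Of the eIF2 group 8 of 14 listed genes were measured, with 1 gene above LD, 0 below and 7 not past the threshold, and a median log2 fold change of -0.04. Eif2ak3 (cluster 17784334) encodes PERK, which senses unfolded protein in the endoplasmic reticulum and phosphorylates eIF2 alpha. Its log2 value was 6.38 at the lowest, 6.48 at the median and 6.53 at the highest in CPS pools, against 5.92, 6.23 and 6.39 in LD pools. Of the 6 CPS pools 5 lay above every LD pool, and CPS replicate 6 lay just below the highest LD pool. The log2 fold change was 0.25 with a standard error of 0.08 (limma p = 0.0100, exact two-sided permutation p = 0.00433), or 1.19-fold. The spread was smaller in CPS (SD 0.06) than in LD (SD 0.18), with LD replicate 6 lowest at 5.92. That pool also had the highest liver mean of LD. In the fits that left out 1 array the log2 fold change of Eif2ak3 lay between 0.20 and 0.29, and its call was kept in all 12 of them. The call was also kept in the other 11 alternatives. Among these were the fit without the arrays of highest liver mean and that with liver and adrenal cortex means as covariates. Taking the lowest cluster, also among them, could not change the call, since Eif2ak3 has 1 cluster.

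The other kinases of eIF2 alpha did not pass. Eif2ak1, the heme-regulated kinase of erythroid cells, had a lowest, median and highest log2 value of 8.22, 8.34 and 8.52 in CPS pools, against 8.17, 8.34 and 8.44 in LD pools. Eif2ak4, which encodes the kinase GCN2 that senses amino acid shortage, had 7.05, 7.38 and 7.43 in CPS pools, against 7.25, 7.38 and 7.51 in LD pools. In both genes the ranges of the groups overlapped, and the log2 fold changes were 0.03 (standard error 0.07) and -0.07 (standard error 0.08). Eif2ak2, the kinase that senses double-stranded RNA, is not analysed here. Whether Eif2ak3 differed from these relatives was not tested.

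The measured genes of the substrate eIF2 and of its exchange factor did not pass. Eif2s1, the alpha subunit of eIF2 that carries the phosphorylated serine, had a lowest, median and highest log2 value of 8.79, 9.17 and 9.37 in CPS pools, against 9.11, 9.25 and 9.31 in LD pools. CPS replicate 5 was the low pool and CPS replicate 6 the high one, so that the CPS range enclosed that of LD. The log2 fold change was -0.10 (standard error 0.09, limma p = 0.272, exact two-sided permutation p = 0.271). It was -0.04 without CPS replicate 5, -0.15 without CPS replicate 6 and -0.26 with liver and adrenal cortex means as covariates, where it passed the threshold. Eif2s2, the beta subunit, had -0.03, with 9.49 ± 0.12 in CPS and 9.52 ± 0.12 in LD (SD, n = 6 each). Of eIF2B, Eif2b5, its catalytic epsilon subunit, had the least spread of the measured subunits, with 7.93, 8.06 and 8.11 in CPS pools, against 8.08, 8.12 and 8.15 in LD pools. Of the 6 CPS pools 3 lay below every LD pool. The log2 fold change of -0.08 gave an exact two-sided permutation p of 0.0303 but a limma p of 0.194, since limma draws the small spread of this gene toward that of other clusters. It passed in the methods' unpaired one-way test. Eif2b1 and Eif2b2, subunits of the regulatory part of eIF2B, had log2 fold changes of -0.03 and -0.05. The other subunits, Eif2b3 and Eif2b4, and the gamma subunit of eIF2 are not analysed here.

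**Figure D2:**
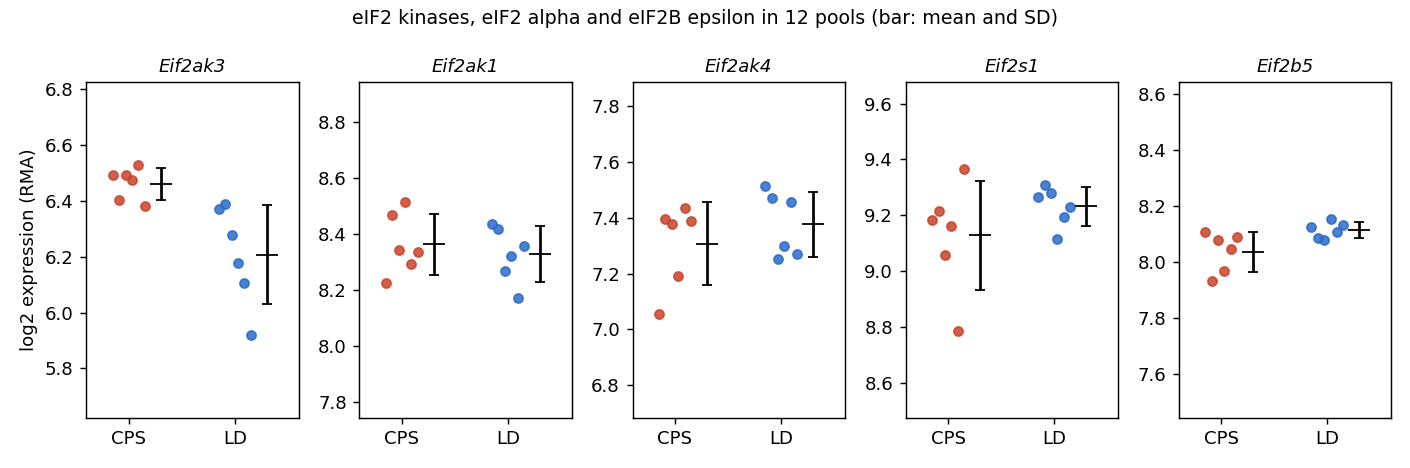
Log2 expression of 3 eIF2 kinase genes, Eif2s1 and Eif2b5 in the 6 CPS pools (left, red) and 6 LD pools (right, blue) of each panel, with mean and SD as bars; every panel spans the same range of log2 units. In Eif2ak3 the CPS pools lie between 6.38 and 6.53 and the LD pools between 5.92 and 6.39, in Eif2b5 3 of the 6 CPS pools lie below every LD pool, and in Eif2ak1, Eif2ak4 and Eif2s1 most pools lie within the range shared by both groups.

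The sequence before the annotated start of Eif2ak3 is shown because it was the factor gene with the lowest p. The 250 bases before the start, at chr4:104363622-104363871 on the plus strand of GRCr8 (RefSeq), are given with each CCAAT box in capitals, read on either strand as CCAAT or ATTGG.
Eif2ak3: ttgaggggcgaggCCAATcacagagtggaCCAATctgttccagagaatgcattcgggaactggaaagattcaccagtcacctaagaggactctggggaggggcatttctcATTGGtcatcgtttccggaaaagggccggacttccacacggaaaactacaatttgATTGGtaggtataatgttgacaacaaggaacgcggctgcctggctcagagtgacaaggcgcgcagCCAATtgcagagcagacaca
This stretch held 5 matches of CCAAT, the core of the box bound by the factor NF-Y, beginning 237, 221, 140, 85 and 20 bases before the start. Of the 11725 array genes with a promoter in RefSeq, 0.247% held 5 or more in the same window, and 35.9% held at least 1. The cut of 5 was the count found in Eif2ak3 itself, and 4 motifs were searched, so this share is a description and not a test. Of the 39 factor genes with a promoter, 9 held at least 1 (23.1%). A match of letters is not a measured binding site.

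Of 14 measured genes that are known to follow Atf4 and eIF2 alpha phosphorylation, from 21 listed, 1 passed upward, 1 downward and 12 in neither direction, with a median log2 fold change of 0.05. Slc7a5, which brings leucine and similar amino acids into cells, ranged from 6.29 to 6.82 in CPS pools and from 5.80 to 6.38 in LD pools, with a log2 fold change of 0.47. Trib3, a pseudokinase induced by Atf4, had a log2 fold change of -0.28, and its means of 1.95 in CPS and 2.23 in LD lay within the dim range of the receptor genes. Atf4 itself was 9.74 ± 0.09 in CPS and 9.75 ± 0.13 in LD (SD, n = 6 each), and Ddit3, which encodes the stress factor CHOP, was 5.15 ± 0.20 in CPS and 5.09 ± 0.23 in LD (SD, n = 6 each). Differences between groups were therefore within the spread of the pools for Atf4 and Ddit3, and 8 of the 14 listed genes had a positive and 6 a negative log2 fold change.

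Of the eIF4 group 12 of 16 listed genes were measured, with 1 gene above LD, 1 below and 10 not past the threshold, and a median log2 fold change of 0.03. Eif4a2 (cluster 17670100), one of a pair of near-identical helicases of the cap-binding complex, had a lowest, median and highest log2 value of 8.91, 9.01 and 9.28 in CPS pools, against 9.09, 9.33 and 9.43 in LD pools. Of the 6 CPS pools 4 lay below every LD pool, while CPS replicates 4 and 6 lay within the LD range. The log2 fold change was -0.25 with a standard error of 0.09 (limma p = 0.0147, exact two-sided permutation p = 0.0173). The call was kept in all 12 fits that left out 1 array, with log2 fold changes from -0.29 to -0.22. It was lost without CPS replicate 2 and LD replicate 6, the arrays of highest liver mean, where the log2 fold change was -0.22 and the limma p 0.0558.

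Eif4a1, the other helicase and the brighter probe set, was 11.36 ± 0.07 in CPS and 11.37 ± 0.08 in LD (SD, n = 6 each), a log2 fold change of -0.01. A second cluster with the symbol of Eif4a1 gave 11.01 ± 0.17 in CPS and 11.06 ± 0.10 in LD (SD, n = 6 each), a log2 fold change of -0.05. Neither cluster passed. Whether Eif4a2 differed from its paralog in its change was not tested. The paralogs are alike in sequence, and how far their probes cross-hybridize was not tested.

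The last 100 bases before the start of Eif4a2, at chr11:91275324-91275423 on the minus strand of GRCr8 (RefSeq), are shown because it was the factor gene lower in CPS, with a TATA box (TATAAA) in capitals.
Eif4a2: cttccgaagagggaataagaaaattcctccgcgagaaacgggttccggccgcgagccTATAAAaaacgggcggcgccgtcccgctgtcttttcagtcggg
The TATA box began 43 bases before the annotated start. Within 250 bases, on either strand, such letters stood before 3 of 39 factor genes (7.69%), the others being Eif2s1 and Eef2, and before 12.5% of the array genes.

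Eif4e3 (cluster 17793611), whose product binds the cap in a way of its own, was a dimmer gene, with a lowest, median and highest log2 value of 4.92, 5.14 and 5.23 in CPS pools, against 4.51, 4.84 and 5.20 in LD pools. The ranges overlapped for 5 of the 6 CPS pools, and the LD spread was the wider (SD 0.13 in CPS and 0.26 in LD). The log2 fold change of 0.26 had a standard error of 0.12 (limma p = 0.0449, exact two-sided permutation p = 0.0628). With 1 array left out at a time it missed the threshold in 7 of 12 fits, those without CPS replicates 1, 2, 3 or 6 or LD replicates 3, 5 or 6. Of the other 11 alternatives it missed in 6, and taking the lowest cluster could not change its call, since it has 1 cluster. With liver and adrenal cortex means as covariates the log2 fold change was 0.17.

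Eif4e, the main cap-binding protein and a known target of Myc, had a lowest, median and highest log2 value of 9.40, 9.52 and 9.76 in CPS pools, against 9.42, 9.54 and 9.74 in LD pools. The groups covered the same range, and the log2 fold change of -0.01 had a 95% interval from -0.19 to 0.17. Eif4e1b, a form known from oocytes, had means of 2.25 in CPS and 2.29 in LD, within the dim range, and was the only factor gene there. Eif4g1, the scaffold, had 10.38, 10.44 and 10.55 in CPS pools, against 10.26, 10.40 and 10.60 in LD pools, with a log2 fold change of 0.06. Eif4b and Eif4h, which stimulate the helicase, had log2 fold changes of 0.06 each, and 4 of the 6 CPS pools of Eif4h lay above every LD pool.

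The proteins that hold eIF4E back did not pass either. Eif4ebp1, a main substrate of the kinase complex mTORC1, had a lowest, median and highest log2 value of 8.37, 8.52 and 8.81 in CPS pools, against 8.39, 8.49 and 8.74 in LD pools. Its relative Eif4ebp2 had 7.96, 8.21 and 8.35 in CPS pools, against 7.93, 8.08 and 8.21 in LD pools. Eif4ebp3, a dimmer member, had 4.26, 4.54 and 4.73 in CPS pools, against 4.39, 4.77 and 4.81 in LD pools. The log2 fold changes of the 3 genes were 0.02, 0.08 and -0.12, and that of Eif4enif1, a carrier of eIF4E into the nucleus, was 0.03. Of 15 measured genes of mTORC1 signalling, from 22 listed, 0 passed upward, 1 downward and 14 in neither direction, with a median log2 fold change of 0.02. The gene lower in CPS was Rps6kb2, which encodes the S6 kinase S6K2, with 6.35 to 6.54 in CPS pools and 6.56 to 6.86 in LD pools. The log2 fold change was -0.21 with a standard error of 0.07 (limma p = 0.0102, exact two-sided permutation p = 0.00216). After Benjamini-Hochberg adjustment the limma p was 0.887. This exact p, the smallest that 6 pools against 6 can give, is that of any gene whose groups do not overlap. Such a separation was seen in 0.295% of all named genes. Mtor, the kinase itself, was 7.97 ± 0.12 in CPS and 7.86 ± 0.07 in LD (SD, n = 6 each).

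**Figure D3:**
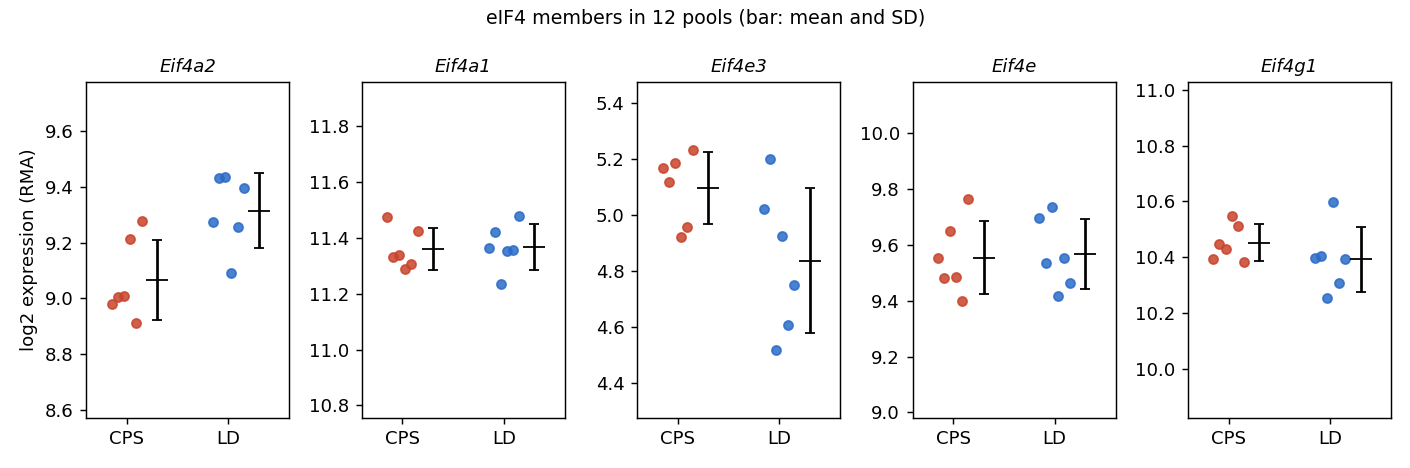
Log2 expression of 5 eIF4 genes in the 6 CPS pools (left, red) and 6 LD pools (right, blue) of each panel, with mean and SD as bars; every panel spans the same range of log2 units. Eif4a2 averaged 9.07 in CPS and 9.31 in LD, while Eif4a1 averaged 11.36 in CPS and 11.37 in LD.

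The E-box CACGTG, which the clock factors CLOCK and BMAL1 and the transcription factor Myc are known to bind, was looked for in the 250 bases before the start of the factor genes, since the photoperiod was shifted in CPS. It reads the same on both strands. It stood before 9 of the 39 factor genes with a promoter (23.1%), namely Eif4e, Eif4g1, Eif4h, Eif3b, Eif1b, Eif5a, Eif5a2, Eef2 and Eef2k, and before 6.89% of the array genes. The factor promoters also held more CpG, with a median of 20 in 250 bases against 11 in those of the array genes, and CpG is part of this motif. The sequences before Eif4e (chr2:229740503-229740752, plus strand, 250 bases) and Eif4g1 (chr11:93746368-93746447, minus strand, 80 bases) of GRCr8 (RefSeq) are shown as examples from the same complex, with the E-box in capitals.
Eif4e: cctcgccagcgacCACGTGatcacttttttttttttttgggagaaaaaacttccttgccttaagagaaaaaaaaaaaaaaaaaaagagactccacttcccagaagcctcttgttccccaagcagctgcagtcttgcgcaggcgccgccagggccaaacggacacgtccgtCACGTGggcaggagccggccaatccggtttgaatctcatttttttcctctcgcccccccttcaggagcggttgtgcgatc
Eif4g1: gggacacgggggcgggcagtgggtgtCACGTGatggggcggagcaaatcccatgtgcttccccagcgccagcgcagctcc
In Eif4e the E-box began 237 and 80 bases before the start, and in Eif4g1 54 bases before it. Of these 9 genes 0 passed in either direction, and their log2 fold changes ranged from -0.10 to 0.07. The clock motif TTATGTAA, the D-box, was in 0 of the 39 promoters on either strand and in 0.836% of those of the array genes.

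Of the eIF3 group, the scaffold on the small ribosomal subunit, 7 of 13 subunits were measured and 0 passed, with log2 fold changes from -0.09 to 0.01 and a median of -0.03. Eif3j, a loosely bound subunit, had the lowest p of the group, with a lowest, median and highest log2 value of 8.53, 8.66 and 8.76 in CPS pools, against 8.57, 8.70 and 8.92 in LD pools. Its 95% interval ran from -0.26 to 0.08. The core subunits Eif3a, Eif3b and Eif3c had log2 fold changes of 0.01, -0.03 and 0.00, and Eif3d, which can bind the cap of some mRNAs, had -0.07, with 4 of the 6 CPS pools below every LD pool. Eif3h and Eif3m had log2 fold changes of -0.02 and -0.06. The mean deviation of the 7 genes from their own means was lowest in CPS replicate 2, at -0.07, and highest in CPS replicate 6, at 0.09. LD pools lay between -0.02 and 0.04, so both extremes of eIF3 were CPS pools.

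The 4 measured genes of the eIF1 group, of 5 listed, all had negative log2 fold changes, from -0.08 to -0.03, and 0 passed. Eif1, the gene for eIF1 itself, is not analysed here. With each array centred on its median 3 of the 4 were negative. Eif1ax, the X-linked gene for eIF1A that helps the ribosome find the start codon, had the lowest p, with a lowest, median and highest log2 value of 9.49, 9.59 and 9.80 in CPS pools, against 9.55, 9.71 and 9.77 in LD pools. Of the 6 CPS pools 3 lay below every LD pool and 1 above all of them. Eif1a, an autosomal gene for the same factor, was 9.17 ± 0.10 in CPS and 9.23 ± 0.13 in LD (SD, n = 6 each). Eif1b, a relative of the start-codon factor eIF1, and Eif1ad, named for its eIF1A domain, had log2 fold changes of -0.03 and -0.05.

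Of the eIF5 group 3 of 5 listed genes were measured and 0 passed. Eif5, the gene for eIF5 itself, is not analysed here. Eif5a, whose protein carries the modified lysine hypusine and relieves stalled ribosomes, had a lowest, median and highest log2 value of 10.99, 11.18 and 11.35 in CPS pools, against 11.15, 11.27 and 11.39 in LD pools. CPS replicate 6 was the low pool, and the log2 fold change was -0.10 with a standard error of 0.07 (limma p = 0.216, exact two-sided permutation p = 0.154). Its dimmer paralog Eif5a2 had a log2 fold change of 0.03. Eif5b, which joins the ribosomal subunits, had 8.36, 8.54 and 8.68 in CPS pools, against 8.36, 8.58 and 8.67 in LD pools, and its log2 fold change was 0.00 with a 95% interval from -0.17 to 0.17.

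The eEF group had 9 of 14 listed genes, of which 0 passed, with a median log2 fold change of 0.01. Eef1a1, which encodes the main carrier of aminoacyl transfer RNA, had the highest mean of all factor probes and the least spread. Its lowest, median and highest log2 value was 12.85, 12.87 and 12.89 in CPS pools, against 12.81, 12.87 and 12.89 in LD pools. The highest value of any cluster on an array lay between 12.99 and 13.18, so Eef1a1 was near the top of the scale. Eef2, the translocase, had 11.63, 11.73 and 11.78 in CPS pools, against 11.54, 11.67 and 11.74 in LD pools, and its inhibitory kinase Eef2k had 7.63, 7.71 and 7.85 in CPS pools, against 7.54, 7.65 and 7.82 in LD pools. For both genes 2 of the 6 CPS pools lay above every LD pool, and the log2 fold changes were 0.05 (standard error 0.06) and 0.07 (standard error 0.07).

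The start of Eef1a1 is shown because mRNAs of elongation factors and ribosomal proteins are known to begin with a 5′ terminal oligopyrimidine (TOP) tract, a C followed by pyrimidines, through which mTORC1 controls their translation. The 30 bases around the annotated start, at chr8:88225050-88225079 on the minus strand of GRCr8 (RefSeq), have the tract in capitals.
Eef1a1: ttggacgttCTTTTTCgcaacgggtttgcc
The tract of 7 bases began 1 base before the annotated start. A C followed by at least 4 bases that are C or T, beginning within 10 bases of the start on the strand of the gene, stood at 14 of 39 factor genes (35.9%) and at 25.6% of the array genes, so a tract this short is common. Annotated starts can lie some bases from those in use.

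Eef1g, a subunit of the exchange factor of eEF1A, had a lowest, median and highest log2 value of 11.74, 11.81 and 12.07 in CPS pools, against 11.76, 11.82 and 11.89 in LD pools, with CPS replicate 3 the high pool. Eef1e1, which is also part of the complex of transfer RNA synthetases, was 8.41 ± 0.16 in CPS and 8.42 ± 0.16 in LD (SD, n = 6 each). Eef1a2, the form of muscle and neurons, had means of 2.90 in CPS and in LD, only just above the dim range, also in CPS replicate 1 with its high muscle genes (3.21, against 3.27 in LD replicate 4). Of the 3 methyltransferases of elongation factors, Eef1akmt2, which modifies a lysine of eEF1A, had the most negative log2 fold change, -0.20, with a standard error of 0.11 (limma p = 0.0901, exact two-sided permutation p = 0.0952). Its lowest, median and highest log2 value was 5.27, 5.56 and 5.89 in CPS pools, against 5.56, 5.78 and 6.02 in LD pools, and 3 of the 6 CPS pools lay below every LD pool. Eef1akmt1 and Eef2kmt had log2 fold changes of -0.04 and 0.02.

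Set side by side, the median log2 fold changes of the groups were -0.06 for eIF1, -0.04 for eIF2, -0.03 for eIF3, 0.03 for eIF4, 0.00 for eIF5 and 0.01 for eEF, and all lay within 0.1 of 0. Negative values were found in 6 of 8 genes of eIF2, 5 of 7 of eIF3, 5 of 12 of eIF4 and 3 of 9 of eEF. They were found in 46.4% of all named genes and in 53.6% of the 2830 named genes of like level. These shares and medians depend on how the arrays are scaled, and centring each array on its median moved the median of all named genes to 0.05. The group medians were then -0.02 for eIF1, -0.00 for eIF2, 0.01 for eIF3, 0.06 for eIF4, 0.04 for eIF5 and 0.04 for eEF, so that of eIF3 changed sign. With this centring the negative values were 4 of 8, 3 of 7, 2 of 12 and 1 of 9, beside 33.4% of all named genes, and the clusters past the threshold were 1151 higher and 672 lower, against 872 higher and 1074 lower on the deposited values and 1097 higher and 911 lower after a further quantile normalization. The median level over both groups was 7.87 for eIF2, 9.79 for eIF3, 8.86 for eIF4 and 7.70 for eEF in log2 units. The groups mix factors with regulators, for these levels and for the counts of negative values. The eIF2 group holds 3 kinases, eIF4 holds 4 eIF4E-binding proteins, and eEF holds Eef2k and 3 methyltransferases. The 2 measured subunits of eIF2 had a median level of 9.34, those of eIF2B 7.67 and the eIF2 kinases 7.34. The methyltransferases of eEF had 5.68. The ranges were broad, from 6.33 to 9.51 in eIF2, 8.68 to 10.95 in eIF3, 2.27 to 11.36 in eIF4 and 2.90 to 12.87 in eEF, and since probes differ in brightness they give no order of mRNA amounts.

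**Figure D4:**
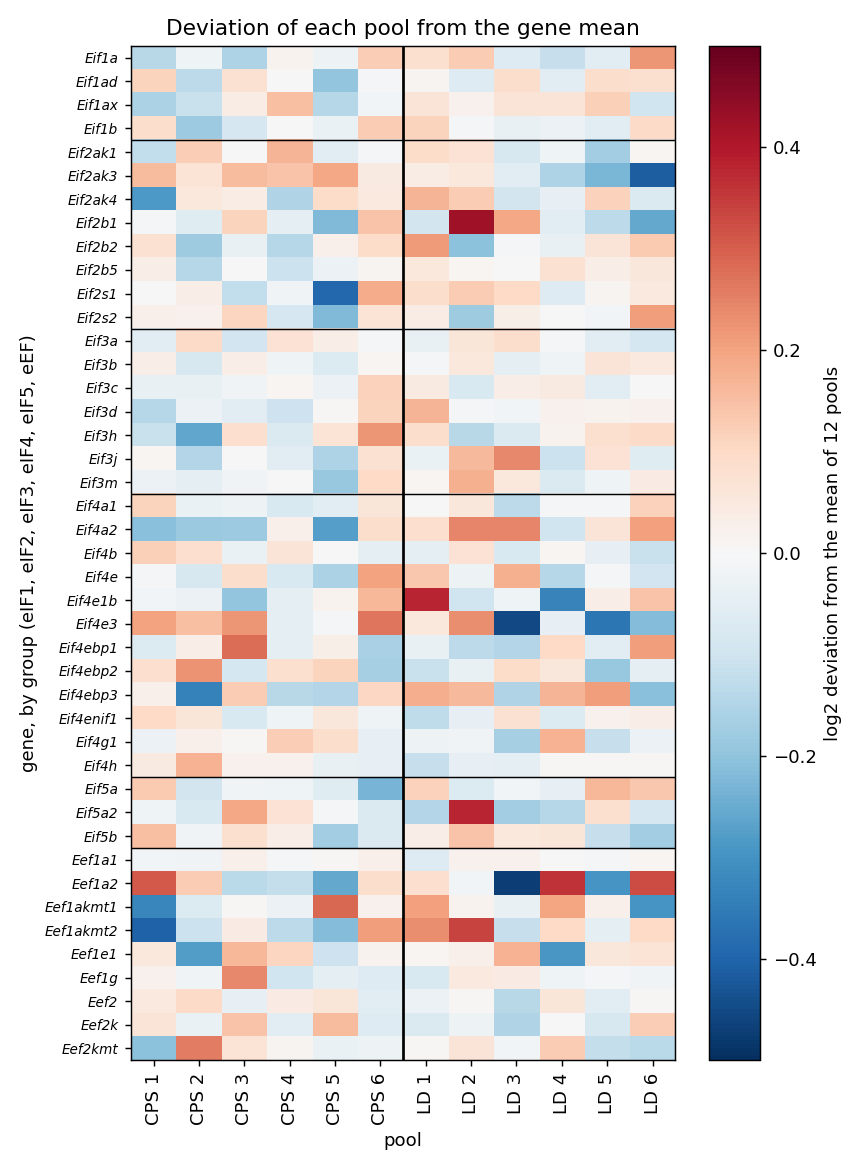
Deviation of each pool from the mean of the 12 pools for each of the 43 genes, in log2 units, with the 6 CPS pools left of the line and the 6 LD pools right of it. The mean deviation over all genes lay between -0.05 in CPS replicate 5 and 0.05 in LD replicate 2, and in each of the 6 groups of factors the ranges of CPS and LD pools overlap.

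Beyond the factors themselves, 13 of 22 listed genes of translation termination, mRNA binding and control of eIF2 alpha phosphorylation were measured, and 0 passed in either direction, with a median log2 fold change of 0.04. Among 42 genes of cytosolic ribosomal proteins 0 passed upward, 3 downward and 39 in neither direction, with a median of -0.05 and 34 of the 42 negative. Their mean levels ran from 3.08 to 12.75, and Rpl27a, 1 of the 3 lower genes, was among the dimmer at 4.39. The share of negative values is that of the deposited values, and such shares depend on how the arrays are scaled. The 43 genes followed here, which include kinases, methyltransferases and eIF4E-binding proteins, had 24 negative on the same arrays. Without the eIF2 kinases and the methyltransferases it was 21 of 37. The difference in share from the ribosomal proteins was not tested.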

How the data were processed

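Total RNA of 12 pools of fetal rat kidney was hybridized to Affymetrix Rat Gene 2.1 ST arrays. The deposited log2 values were made by the authors with RMA (Robust Multiarray Average: background correction, quantile normalization and probe summary). Affymetrix Expression Console is named, without a version, in the processing notes of the submitters. Groups follow the sample titles. Array scans and detection calls were not analysed here.

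All 36685 clusters were tested between CPS and LD with limma 3.58.1 in R 4.3.3 (lmFit and eBayes, two-sided), called at an unadjusted p under 0.05, with Benjamini-Hochberg adjustment over all clusters. Clusters with 1 symbol in the platform annotation numbered 14824, with several 829 and with none 21032. Of clusters naming a factor, 3 carried several symbols and were left out. Single genes also had an exact two-sided permutation test over 924 regroupings. Array medians lay between 3.31 and 3.50, correlations between arrays between 0.978 and 0.987, and precision is limited by how many arrays there were. Mothers were caged individually per the labels, and the reading of 1 mother per pool is not stated for each array, so p-values measure the spread between these pools. The code of the fit was checked on simulated arrays with known changes. Their noise was independent between clusters, so this check does not cover genes that vary together between pools, such as the tissue markers. Genes described with values in every pool are those past the threshold, that of lowest p per class of factor, the 3 largest changes in each direction and a fixed set of central factors. The factors, lists and tests were chosen with earlier results of these data known, the ribosome list was narrowed by symbol afterwards, and a wrong symbol in the mTORC1 list was later corrected to Pdpk1. Promoters of 39 of the 43 genes were matched by gene ID to RefSeq (GRCr8). Alternatives were the methods' unpaired one-way test, a replicate block, trend and robust spread, array weights, median centring, quantile normalization, a level filter, 1 cluster per gene, the lowest cluster, liver and adrenal covariates and arrays left out.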

Additional observations from a re-analysis of the deposited data

Results flagged for a closer look

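Among the 21 genes described pool by pool, 42 groups of 6 pools were searched for a pool far from the others, and 2 were found, where chance gives about 1 in 20. In Eef1g, CPS replicate 3 stood at 12.07, while the remaining CPS pools spanned 11.74 to 11.86. In Eef1a1, LD replicate 1 stood at 12.81, while the remaining LD pools spanned 12.86 to 12.89, a gap that is small in log2 units.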

How the results depend on the processing

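Eif2ak3 kept its direction and its call in all 23 alternatives, with log2 fold changes from 0.20 to 0.31, and Eif4a2 kept its call in 22. Among these, taking the lowest cluster of a gene repeats the main fit for genes with 1 cluster, so neither call could change there. Leaving out each array in turn gave 1 to 2 factor genes higher in CPS, 1 to 2 lower and 1639 to 2555 clusters past the threshold. The 2 genes lower in CPS were found without CPS replicate 6, where Eef1akmt2 passed at -0.27. The count of factor genes higher in CPS was 1 with array weights, with trend and robust spread, with the replicate block, with the methods' unpaired one-way test, with the covariates and without the arrays of highest liver mean, each time through loss of Eif4e3. Replicate numbers are shared by both groups, but pools of the same number did not deviate together (r from -0.06 to 0.05), and the replicate block changed no other factor's call and gave 1984 clusters. The count of factor genes lower in CPS was 2 in the methods' unpaired one-way test, which added Eif2b5, and 0 without the arrays of highest liver mean. With the covariates it was 3, which added Eif2s1 at -0.26 and Eef1akmt2 at -0.32. Fewer clusters were tested with 1 cluster per named gene, where 850 (5.84%) passed, and at or above the median level, where 1223 (6.67%) passed. In the main fit 687 of the same named genes (4.72%) and 5.3% of all clusters passed, so the share called was higher in both alternatives. With each array centred on its median the median log2 fold change was 0.0235 over all factors and 0.0635 for eIF4. The causes of these changes were not tested, and signal near the top or the dim end of the array limits Eef1a1 and Eif4e1b.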
